A study of Mus musculus with 10 samples.

Results

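The genes followed here build the red cell membrane: the band 3 gene Slc4a1, the skeleton genes Ank1, Sptb, Epb41 and Epb42, the Rh complex genes Rhag and Rhd, and the blood group gene Ermap. They were chosen by symbol, not by any measured value, and all 8 were found among the 25178 genes of the count table and passed the filter on low counts that left 14674 genes for testing. The data came from bone marrow of C57/BL6 mice at steady state, with 5 females and 5 males, 1 library per mouse and no treatment named for either sex. C57/BL6 is an inbred laboratory strain, and no source used here gives the ages of the mice. Marrow was flushed from 1 hindlimb of each mouse and cells with markers of mature lineages were taken out with magnetic beads, so the cells sequenced were a lineage-depleted mixture. The labels call them hematopoietic stem and progenitor cells. The comparison asked how blood formation differs between female and male mice.

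The red cell membrane is a lipid bilayer held in shape by a protein net on its inner face. Spectrin tetramers are the strands of that net. Ankyrin and protein 4.2 tie spectrin to band 3, the chloride and bicarbonate exchanger, while protein 4.1 ties it to actin. The Rh proteins sit in the same band 3 complex. The genes are switched on step by step as erythroid progenitors mature, with the erythroid factors GATA1 and KLF1 as known activators, and in people and mice defects of spectrin, ankyrin, band 3 and protein 4.2 are known causes of hereditary spherocytosis.

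Library totals ran from 20754101 counts in female replicate 1 to 24759687 in male replicate 1, and each member had at least 626 counts in every library, so counting error was small beside the spread between mice. Early erythroid markers (Gata1, Klf1, Epor, Tfrc and others, 10 of 10 tested) summed to between 5825 and 7696 CPM in female mice, against between 6582 and 7903 CPM in male mice, where CPM is the count of a gene per 1000000 counts of its library after TMM scaling. Most of this sum was Car2 and Car1, which averaged 2618 and 1418 CPM in female mice, against 2755 and 1858 CPM in male mice. Of the 10, 1 had an unadjusted edgeR p under 0.05 (Car1, log2 fold change -0.39), with 0 called. Stem and progenitor markers (8 of 8 tested, Kit and Cd34 among them) summed to 814 to 1022 CPM in female mice, against 653 to 956 CPM in male mice. Mature neutrophil markers (6 of 6 tested) summed to 234 to 839 CPM in female mice, against 177 to 7975 CPM in male mice, highest in male replicate 1. The 5 B lineage markers tested summed to 9.02 to 13.5 CPM in female mice, against 13.1 to 37.5 CPM in male mice, also highest in male replicate 1. All 5 had a negative log2 fold change (median -1.73) and an unadjusted edgeR p under 0.05, with 0 called. All 6 neutrophil markers likewise had a negative value (median -2.62) and an unadjusted edgeR p under 0.05, with 0 called. Over all genes tested, 9.17% had an unadjusted edgeR p under 0.05 and 0.0545% were called. Megakaryocyte markers (5 of 6 tested, without Gp1bb) summed to 1261 to 1660 CPM in female mice, against 996 to 1216 CPM in male mice. All 5 had a positive log2 fold change (median 0.31), 2 of them at an unadjusted edgeR p under 0.05, with 0 called. Macrophage markers (6 of 6 tested) summed to 25.1 to 56.2 CPM in female mice, against 18.9 to 93.1 CPM in male mice, with 0 at an unadjusted edgeR p under 0.05. No marker of these lists was at 0 counts over all libraries. Male replicate 1 had the highest neutrophil, B lineage and hemoglobin levels, and male replicate 2 had a TMM factor of 0.886 against 0.964 to 1.05 in the other libraries, and several values are also given without this pair. The part of these other cells in the results on the membrane genes was not tested. A library's deviations followed gene length to different degrees, with rank correlations across 14663 genes of -0.506 in male replicate 2, -0.297 in male replicate 3, -0.146 in male replicate 1, 0.289 and 0.369 in male replicates 5 and 4, and 0.0429 to 0.328 in the 5 females. In a bulk library, fewer cells of a type and less RNA per cell cannot be told apart.

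The membrane genes were abundant in this preparation. Together they took 0.267% ± 0.0417 of a library in female mice, against 0.246% ± 0.0631 in male mice (SD, n = 5 each). Female values lay between 0.224% and 0.312% and male values between 0.157%, in male replicate 2, and 0.315%, in male replicate 4. The female range lay within the male range.

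Per kilobase of exon, the Rh and blood group genes were the most abundant and protein 4.2 the least. Rhd averaged 228 ± 34.9 CPM per kilobase over the 10 mice, Ermap 123 ± 22.4 and Rhag 78.6 ± 9.12. Slc4a1 averaged 68.5 ± 31.5, Sptb 32.1 ± 11.3, Ank1 25.2 ± 7.59, Epb41 15.5 ± 2.79 and Epb42 8.86 ± 2.09 CPM per kilobase (SD, n = 10 each). The order of Rhd over Ermap, of Ermap over Rhag, of Sptb over Ank1 and of Epb41 over Epb42 held in 10 of 10 libraries, and that of Slc4a1 over Sptb and of Ank1 over Epb41 in 9 of 10. Slc4a1 and Rhag were neighbours that did not differ beyond their spread: Rhag was higher in 5 of 5 females but in 2 of 5 males. With the length of the longest coding transcript in place of all exon bases, Ank1 (41.5 CPM per kilobase) came before Sptb (37.5) in 9 of 10 libraries, so the order of this pair depends on the length used. The same change of length put Epb41 at 29.8 CPM per kilobase, below Sptb in 8 of 10 libraries, and Epb42 at 11.7.

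**Figure D1:**
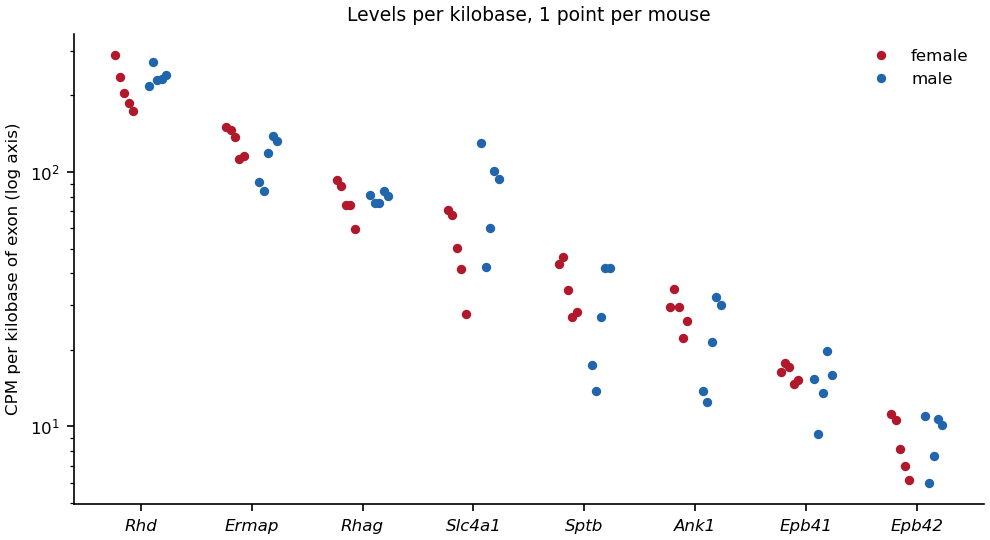
Level of each membrane gene in CPM per kilobase of exon (vertical log axis), 1 point per mouse, females left and males right of each gene name. Rhd averaged 228 and Epb42 8.86 CPM per kilobase, and the points of Slc4a1 spread most widely.

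No member passed the test between the sexes. With edgeR's quasi-likelihood test adjusted over all 14674 genes tested, 0 of the 8 were called at an adjusted p under 0.05, against a background of 0.0545% of all genes. DESeq2 called 0 of the 8 as well, against 0.337% of the genes it tested. At an unadjusted edgeR p under 0.05 there was 1 of the 8, Slc4a1, against 9.17% of all genes. In 0 of the 8 did all females lie on one side of all males, against 1.93% of all genes. Of the fold changes 4 were positive and 4 negative, against 52% of all genes with a negative value, with a median log2 value of 0.05 against -0.01 over all genes tested, where a positive value means higher in females. Leaving out male replicates 1 and 2 gave a median of -0.04 with 2 positive and 6 negative values, and leaving out male replicate 2 alone gave -0.02. Leaving out female replicate 5 gave 0.11 with 6 positive and 2 negative values, and leaving out male replicate 4 gave 0.13.

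Band 3 had the largest difference among the 8. Slc4a1 (chromosome 11: 102348824 to 102366203, minus strand, GRCm38) encodes the anion exchanger to which the skeleton is anchored. Its level was 346, 332, 246, 203 and 136 CPM in female replicates 1 to 5, against 635, 207, 295, 495 and 457 CPM in male replicates 1 to 5. Male replicates 1, 4 and 5 lay above every female, while male replicates 2 and 3 lay among the females, and female replicates 4 and 5 lay below every male. The mean was 253 ± 88.3 CPM in female mice, against 418 ± 169 CPM in male mice (SD, n = 5 each). The log2 fold change was -0.73 with an SE of 0.31 (edgeR adjusted p = 0.506). All 5 females were below the male median. The log2 fold change lay between -0.90 and -0.53 over 19 alternative settings, with an adjusted p of 0.324 or more in each.

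Ankyrin 1 and beta spectrin varied together and spread most between males. Ank1 (chromosome 8: 22974844 to 23150497, plus strand) encodes the adaptor between spectrin and band 3. It stood at 399, 470, 397, 300.0 and 351 CPM in female replicates 1 to 5, against 186, 168, 291, 438 and 407 CPM in male replicates 1 to 5. Male replicates 1, 2 and 3 lay below every female, and male replicates 4 and 5 lay among them. The log2 fold change was 0.36 with an SE of 0.25 (edgeR adjusted p = 0.522). It was 0.02 without male replicates 1 and 2, and 0.24 after each library's trend with gene length was taken out. Without male replicate 1 alone it was 0.23 and without male replicate 2 alone 0.21.

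Sptb (chromosome 12: 76580488 to 76710547, minus strand) encodes the beta chain of spectrin. It was at 526, 561, 418, 327 and 343 CPM in female replicates 1 to 5, against 212, 167, 328, 508 and 510 CPM in male replicates 1 to 5. Male replicates 1 and 2 were below every female and the other males overlapped the females. The log2 fold change was 0.33 with an SE of 0.30 (edgeR adjusted p = 0.589), but -0.05 without male replicates 1 and 2, 0.19 without male replicate 1 and 0.16 without male replicate 2. The ratio of Ank1 to Sptb counts stayed between 0.758 and 1.02 in females and between 0.797 and 1.01 in males.

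The other skeleton genes differed less between the sexes. Epb41 (chromosome 4: 131923413 to 132075321, minus strand), which encodes protein 4.1 and is also expressed outside the red cell lineage, spanned 234 to 283 CPM in female mice. In males it spanned 148 CPM, in male replicate 2, to 316 CPM, in male replicate 4. Its log2 fold change was 0.13 (SE 0.16, edgeR adjusted p = 0.678), 0.01 without male replicate 2, -0.02 without male replicates 1 and 2 and -0.03 after the length trend was taken out. Epb42 (chromosome 2: 121017891 to 121037072, minus strand), which encodes protein 4.2, a stabiliser of the contact between band 3 and ankyrin, spanned 33.2 to 60.5 CPM in female mice, against 32.5 to 59.7 CPM in male mice. Its log2 fold change was -0.08 (SE 0.20, edgeR adjusted p = 0.839), -0.15 without male replicates 1 and 2, and -0.20 to 0.02 with any 1 library left out. The 2 sexes covered almost the same range.

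Annotated antisense or opposite-strand genes share exon bases with 3 of the skeleton genes. Gm15816 shares 862 bases with Ank1 and had 21 counts in all, Plekhg3 shares 1 base with Sptb, and Gm13063 and Gm10300 share 91 and 142 bases with Epb41. No source used here says whether counting used the strand, so reads from these stretches cannot be told apart by strand. The Rh and blood group genes, Slc4a1 and Epb42 share no exon bases with another annotated gene.

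By the highest level over the lowest in the 10 mice, the Rh pair and Ermap were the most even members. This ratio was 1.56 for Rhag, 1.66 for Rhd and 1.79 for Ermap. Epb42 followed closely at 1.86 and Epb41 at 2.13, and Slc4a1 was the least even at 4.68. Rhag (chromosome 17: 40811126 to 40840754, plus strand) encodes the Rh-associated glycoprotein that carries the Rh complex to the membrane, and Rhd (chromosome 4: 134864536 to 134896172, plus strand) its Rh polypeptide partner. Ermap (chromosome 4: 119175457 to 119190011, minus strand) encodes an immunoglobulin superfamily protein that carries the Scianna blood group in people.

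Promoter sequence is in hand for 6 of the 8 members, with 8 start sites in all, taken from RefSeq (GRCm38.p6). The GATA factor motif was searched as AGATAA, with A or T as the first and A or G as the last letter, on both strands in the 250 bases before each start site. It was present before 5 of the 8 start sites (62.5%), against 26.5% of 32851 promoters of the same length. The motif CCNCNCCC, bound by KLF factors, was present before 3 of the 8 (37.5%), against 45.9% of all, and no match of one motif overlapped one of the other. These 3 were start sites of Epb41 and Sptb. The stretches before the genes Rhd (chr4:134864416-134864535, plus strand), Rhag (chr17:40811029-40811125, plus strand) and Ermap (chr4:119190012-119190115, minus strand) are shown because their GATA matches are the nearest to a start site among the 5, beginning 43, 31 and 67 bases before the RefSeq start. The Rhag and Ermap stretches end 23 and 16 bases before the RefSeq start, where the GENCODE gene begins. Capitals mark the match, which reads TTATCA where it lies on the other strand.
Rhd: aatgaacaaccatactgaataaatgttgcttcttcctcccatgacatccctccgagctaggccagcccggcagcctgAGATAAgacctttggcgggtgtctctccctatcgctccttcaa
Rhag: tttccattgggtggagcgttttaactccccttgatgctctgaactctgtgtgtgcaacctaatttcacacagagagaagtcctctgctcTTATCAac
Ermap: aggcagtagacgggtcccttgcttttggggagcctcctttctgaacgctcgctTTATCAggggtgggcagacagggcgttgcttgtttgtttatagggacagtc
These are letter matches and not measured binding sites.

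Rhag stood at 218, 206, 174, 174 and 140 CPM in female replicates 1 to 5, against 190, 176, 177, 197 and 188 CPM in male replicates 1 to 5. All 5 males lay between the second and the third highest female. The coefficient of variation was 16.8% in females and 4.76% in males, and the log2 fold change was -0.03 with an SE of 0.11 (edgeR adjusted p = 0.917). Its approximate 95% interval, from a normal distribution and so somewhat too narrow, ran from -0.25 to 0.19. Without female replicate 5 the value was 0.06, and with the length trend taken out 0.05.

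Rhd had 459, 377, 325, 297 and 276 CPM in female replicates 1 to 5, against 348, 430, 365, 369 and 383 CPM in male replicates 1 to 5. Female replicate 1 was above every male and female replicates 3, 4 and 5 below every male. The log2 fold change was -0.13 with an SE of 0.13 (edgeR adjusted p = 0.631, approximate 95% interval -0.39 to 0.13). It was -0.25 without female replicate 1, -0.06 without female replicate 5 and -0.02 with the length trend taken out. Among the males, Rhd was highest in male replicate 2, the same mouse in which each of the other 7 members was lowest.

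Ermap stood at 798, 773, 728, 598 and 613 CPM in female replicates 1 to 5, against 485, 446, 626, 734 and 703 CPM in male replicates 1 to 5. Male replicates 1 and 2 were below every female, as for Sptb. The log2 fold change was 0.23 with an SE of 0.15 (edgeR adjusted p = 0.516), 0.03 without male replicates 1 and 2, 0.16 without male replicate 1 and 0.14 without male replicate 2.

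**Figure D2:**
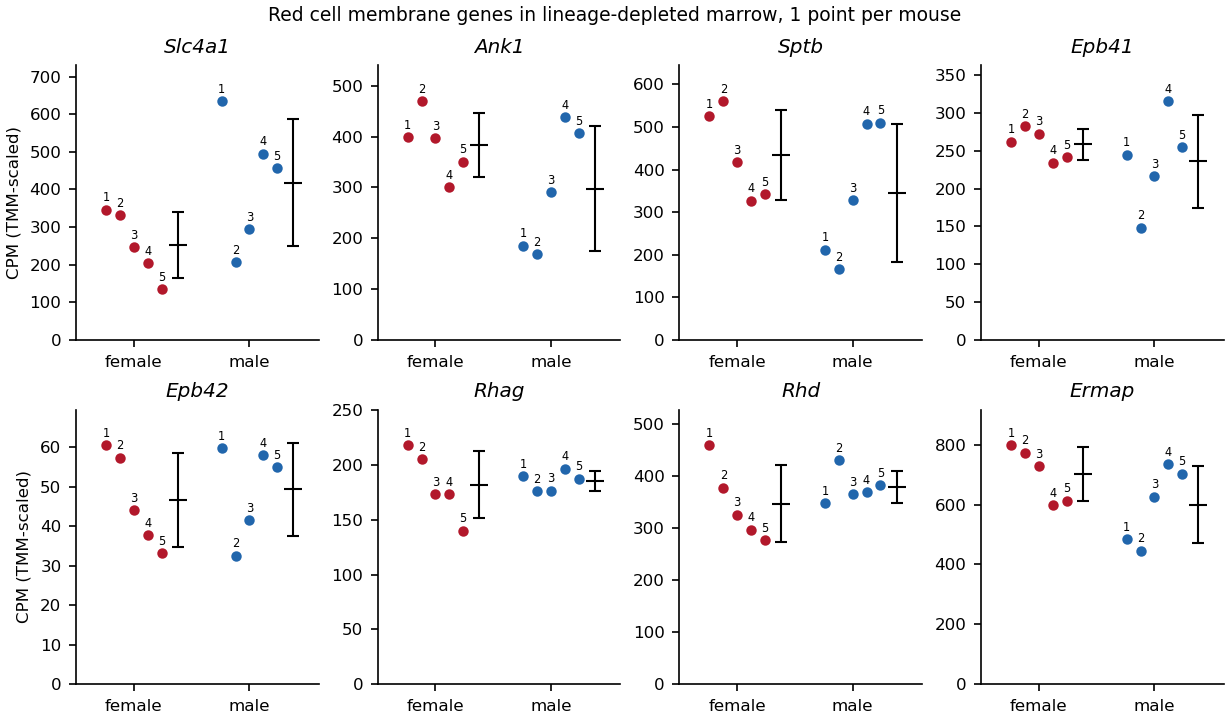
CPM of each membrane gene in each mouse (points, numbered by replicate), females left and males right, with the mean and SD of 5 mice as a bar beside the points; vertical axes start at 0. Slc4a1 averaged 253 CPM in female mice, against 418 CPM in male mice, male replicates 1 and 2 are the lowest mice for Ank1, Sptb and Ermap, and the groups overlap in all 8 genes.

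Set against other members within a library, the band 3 gene was on average lower in females for all 7 ratios, and without overlap between the sexes for 5 of them. The ratio of the counts of 2 genes in a library does not depend on how libraries are scaled, but it can carry the library's trend with gene length. Slc4a1 (4891 exon bases) is shorter than Sptb (12147), Ank1 (13527) and Epb41 (15942), while Ermap (5297) and Epb42 (5417) are longer but nearer in length. Rhag (2339) and Rhd (1594) are shorter than Slc4a1. The 5 ratios without overlap are those to the longer genes, and the ratios to the shorter Rhag and Rhd overlap. The part of the length trend in the ratios was not tested. These ratios were chosen after the values were seen and are given with no test. The ratio of Slc4a1 to Sptb was 0.658, 0.593, 0.590, 0.621 and 0.396 in female replicates 1 to 5, against 2.99, 1.24, 0.898, 0.975 and 0.896 in male replicates 1 to 5. Every female lay below every male. The ratio of Slc4a1 to Ank1 was likewise 0.387 to 0.868 in females and 1.01 to 3.42 in males.

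The ratio of Slc4a1 to Ermap was 0.221 to 0.434 in females and 0.463 to 1.31 in males. To Epb41 it was 0.561 to 1.32 in females and 1.36 to 2.60 in males. To Epb42, a gene of similar exon length (5417 bases against 4891 for Slc4a1), it was 4.08 to 5.79 in females and 6.36 to 10.6 in males. The sexes did not overlap in any of these 5 ratios. The ratio to Rhag was 0.968 to 1.62 in females and 1.17 to 3.35 in males, and male replicate 2 alone lay among the females. The ratio to Rhd was 0.491 to 0.881 in females and 0.480 to 1.82 in males, with male replicate 2 below every female and male replicate 3 (0.808) among them.

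Without overlap, 5 of the 7 ratios with Slc4a1 were lower in females, against 5.17% of the ratios of Slc4a1 to the other 14673 genes tested. Of the 21 ratios between the other members 0 separated the sexes, and of all pairs of tested genes 2.07% did so in either direction. The 5 ratios share Slc4a1 and so are not separate observations. Their other genes are not separate either, as Ank1, Sptb and Ermap varied nearly together (Pearson r of log2 CPM 0.97 to 0.98). Leaving out any 1 library left 5 or 6 of the 7 without overlap, and leaving out male replicates 1 and 2 left 6. In other lists the count was 3 of 29 tested partners (Xk, Piezo1 and Atp2b4, named for this alone), 1 of 8 paralogs (Slc4a2), 1 of 10 early erythroid genes (Zfpm1) and 0 of 10 late erythroid genes. The late erythroid list, with the 4 adult hemoglobin genes and Alas2, had 9 of 10 negative log2 fold changes with a median of -1.60. Of the 10, 8 had an unadjusted edgeR p under 0.05, against 9.17% of all genes, and 0 were called, against 0.0545%. The 4 hemoglobin genes had -2.25 to -1.86 (edgeR adjusted p = 0.193 each). The late erythroid list summed to 3932 to 8138 CPM in female mice, against 9938 to 46780 CPM in male mice, and its part in the ratios was not tested.

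**Figure D3:**
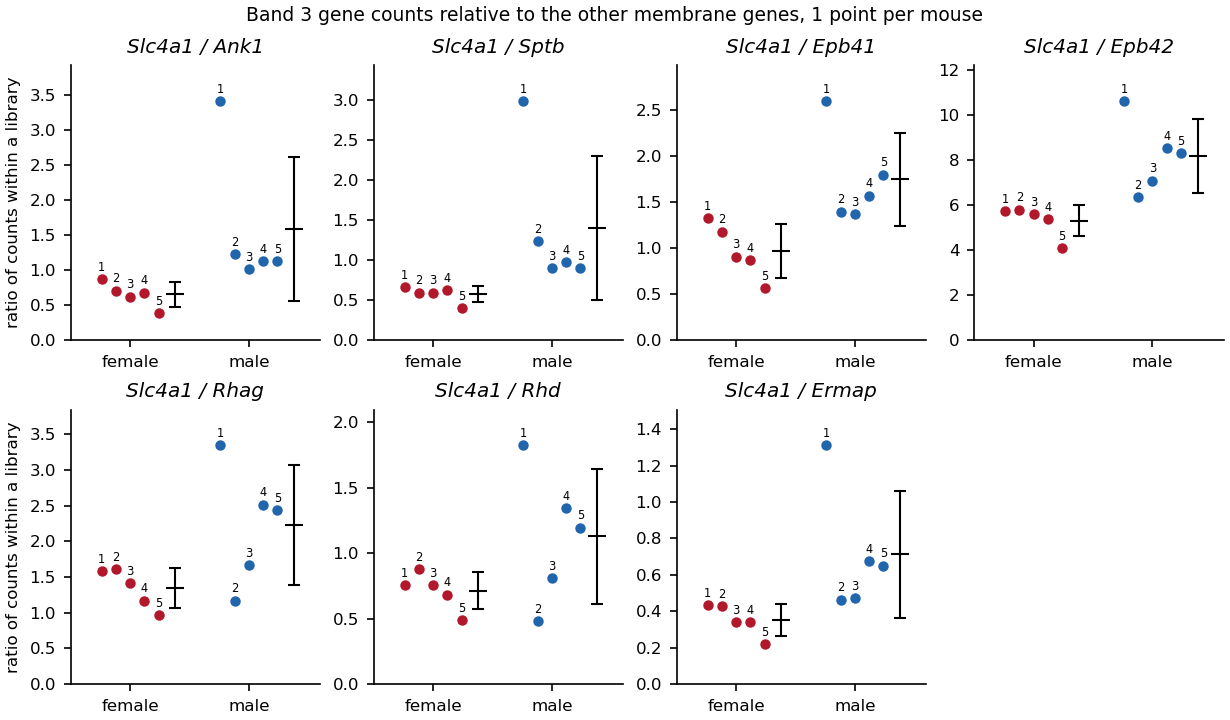
Ratio of Slc4a1 counts to the counts of each other membrane gene within a library, 1 point per mouse numbered by replicate, females left and males right, with the mean and SD of 5 mice beside the points; axes start at 0. All females lie below all males for Ank1, Sptb, Epb41, Epb42 and Ermap, while for Rhag and Rhd the sexes overlap.

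The members differed in how closely they varied together across the 10 mice. Likeness is given as Pearson r of log2 CPM over the 10 mice, as a description, and the points share library depth and the length trend above. The closest pairs were Ank1 with Sptb (r = 0.98), Sptb with Ermap (0.98) and Ank1 with Ermap (0.97). Slc4a1 was most like Epb42 (0.88) and Rhag (0.72), and had 0.05 with Ank1 and 0.21 with Sptb. Rhag and Rhd had 0.77. Of the 28 pairs 26 were positive, with a median of 0.435 and a lowest value of -0.21 for Epb41 with Rhd.

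Without male replicates 1 and 2, over 8 mice, Slc4a1 had r = 0.74 with Sptb and 0.54 with Ank1, Rhag had 0.90 with Rhd, and Ank1 had 0.92 with Sptb. The sum of the adult hemoglobin genes (Hbb-bs, Hbb-bt, Hba-a1 and Hba-a2) had r = 0.63 with Slc4a1 (0.80 without male replicates 1 and 2) and -0.62, -0.56 and -0.54 with Ank1, Ermap and Sptb. Their share of the library was 0.567% ± 0.164 in female mice, against 2.18% ± 1.39 in male mice (SD, n = 5 each), and every female lay below every male, so these r also carry the difference between the sexes. Taken as deviations from the mean of each sex, r was 0.38 for Slc4a1 and -0.46, -0.36 and -0.41 for Ank1, Ermap and Sptb. The negative values all include male replicates 1 and 2, the lowest mice for Ank1, Ermap and Sptb. The same mice had the highest hemoglobin sums (45670 and 26190 CPM). No r without this pair was computed for these genes singly. For the members' mean, r with hemoglobin was -0.072, and 0.524 without the pair.

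**Figure D4:**
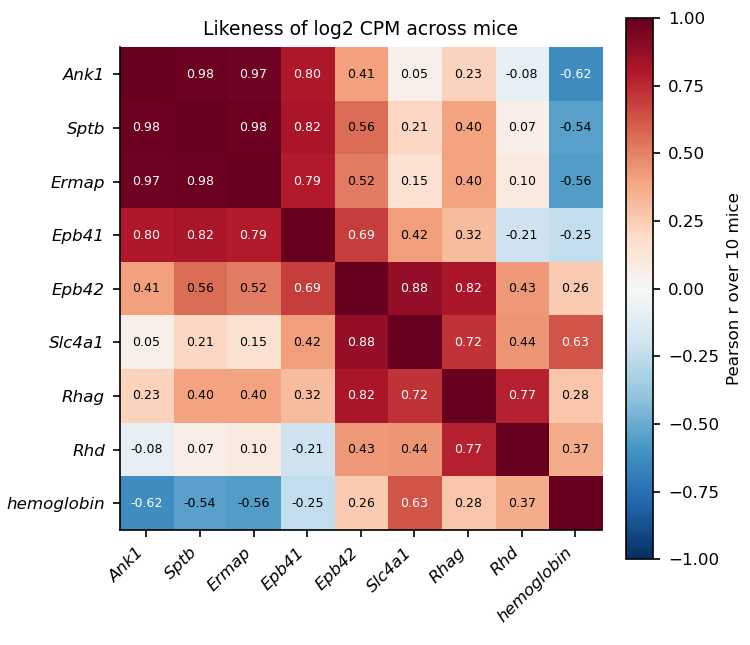
Pearson r of log2 CPM over the 10 mice for each pair of membrane genes and for the summed adult hemoglobin genes (colour scale from -1 to 1). Ank1, Sptb and Ermap form a block with r of 0.97 to 0.98, and hemoglobin has r = 0.63 with Slc4a1 and negative values with that block.

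Outside the set, the genes most like the mean of the 8 members over the 10 mice were Btnl10 (r = 0.974), Pigq (0.972), Dtl (0.970), Natd1 (0.966), Cers2 (0.964) and Anapc5 (0.961). Those most like Slc4a1 were Tmod1 (0.962), E2f2 (0.951), Fech (0.928) and Trim10 (0.922). Tmod1, tropomodulin 1, caps the short actin filaments of the red cell skeleton, E2f2 is a cell cycle transcription factor, Fech inserts iron into heme and Trim10 is a ubiquitin ligase family gene of the erythroid lineage. None of these 10 was called between the sexes (edgeR adjusted p of 0.506 or more), against 0.0545% of all genes called.

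The other genes of the red cell membrane gave no call either. Of 31 partners listed 29 were tested, and Icam4 and Bcam were not. By edgeR 0 of the 29 were called, against 0.0545% of all genes. At an unadjusted edgeR p under 0.05 there was 1 (Cd47), against 9.17% of all genes. DESeq2, fitted without the filter and so with 30 of the partners, gave a median log2 fold change of -0.07. Values were positive in 14 and negative in 15, with a median log2 fold change of -0.07 against -0.01 over all genes tested. The split was 8 positive and 21 negative without male replicates 1 and 2 (median -0.05), 10 and 19 without male replicate 2 alone (median -0.04) and 9 and 20 with the length trend taken out (median -0.03). Without male replicate 1 alone the median was 0.00. The list summed to 5220 to 6327 CPM in female mice, against 5213 to 6208 CPM in male mice.

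The partners with the smallest p were Cd47, Tmod1, Flot1 and Cd59a, all with negative values. Cd47, the surface signal that keeps macrophages from engulfing red cells, averaged 334 ± 18.2 CPM in female mice, against 419 ± 114 CPM in male mice (SD, n = 5 each; log2 fold change -0.33, SE 0.15, edgeR adjusted p = 0.506). Tmod1 was at 2.72 ± 0.888 CPM in female mice, against 4.25 ± 1.83 CPM in male mice (log2 fold change -0.65, SE 0.32). Flot1, a lipid raft scaffold gene, had 57.0 ± 4.02 CPM in female mice, against 65.8 ± 9.26 CPM in male mice. Cd59a, an inhibitor of complement lysis, had 11.02 ± 1.71 CPM in female mice, against 14.7 ± 5.78 CPM in male mice, and all 4 had the same adjusted p of 0.506.

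The widest interval belonged to Piezo1, the mechanically gated cation channel of the red cell, outside the rule for named genes and chosen after its values were seen. It stood at 184, 216, 222, 148 and 188 CPM in female replicates 1 to 5, against 73.3, 19.7, 130, 214 and 228 CPM in male replicates 1 to 5. Male replicates 1, 2 and 3 were below every female, the same mice as for Ank1 (log2 fold change 0.53, SE 0.47, edgeR adjusted p = 0.593).

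**Figure D5:**
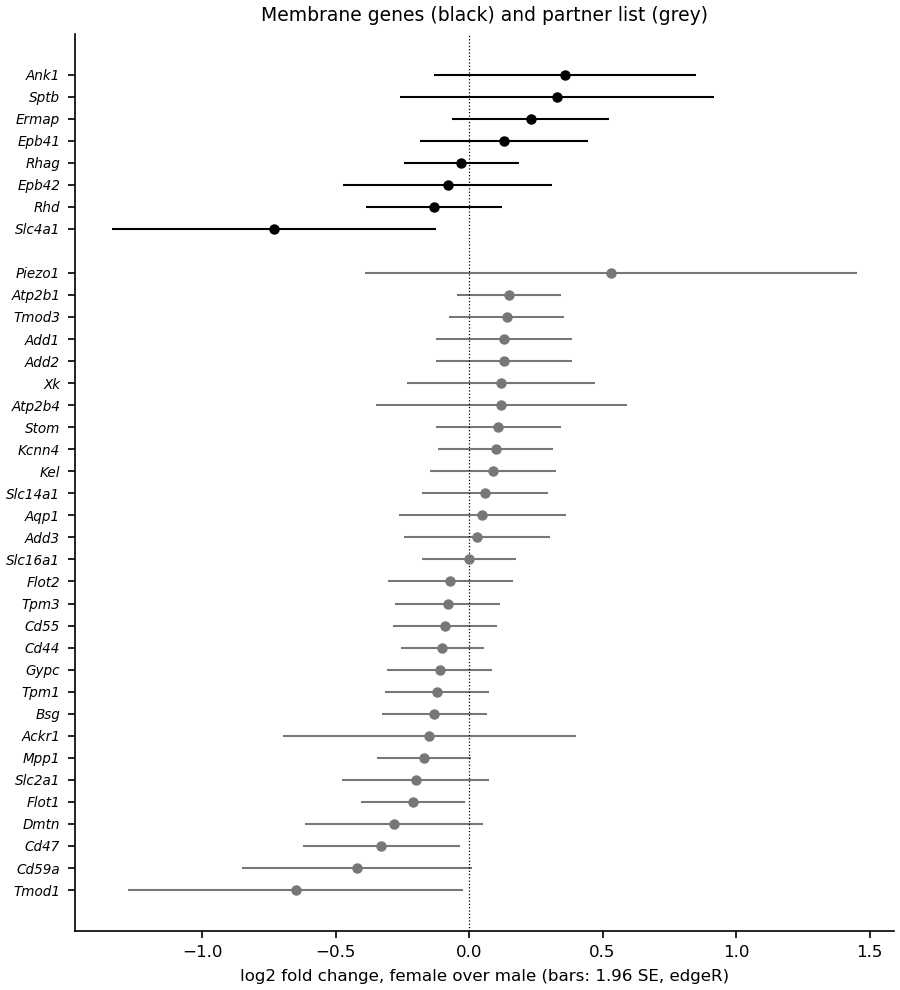
Log2 fold change, female over male, of the 8 membrane genes (black) and the 29 tested partners (grey). The dotted line marks 0. Bars are approximate 95% intervals, from the edgeR SE and a normal distribution. They are narrower than the edgeR test implies: the Tmod1 bar, for example, leaves out 0 at an unadjusted edgeR p of 0.064. Slc4a1 (-0.73) lies farthest from 0 among the 8, and 0 of the 37 genes shown were called, against 0.0545% of all genes tested.

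Summed, relatives of the members that serve other cell types were lower than the members, which reached at least 1775 CPM in each mouse. Singly, Sptbn1 and Sptan1 (named for this alone) averaged more than the member Epb42. Sptan1 was at 71.5 CPM in female mice, against 61.0 CPM in male mice, and Epb42 at 46.6 and 49.4 CPM. Of 10 listed paralogs 8 were tested, without Rhbg and Rhcg, and they summed to 166 to 237 CPM in female mice, against 108 to 209 CPM in male mice. Values were positive in 7 of 8 with a median log2 fold change of 0.27. By edgeR 0 were called, against 0.0545% of all genes, and 0 had an unadjusted p under 0.05, against 9.17%. Slc4a2, an anion exchanger related to band 3, averaged 31.3 ± 2.90 CPM in female mice, against 25.1 ± 6.90 CPM in male mice (edgeR adjusted p = 0.506). Sptbn1, a beta spectrin of other cells, averaged 73.5 ± 13.6 CPM in female mice, against 59.3 ± 16.9 CPM in male mice (edgeR adjusted p = 0.510). Ank3 was at 3.66 ± 1.23 CPM in female mice, against 2.69 ± 0.696 CPM in male mice, and Epb41l2 at 17.7 ± 1.68 CPM in female mice, against 15.4 ± 3.04 CPM in male mice (SD, n = 5 each). The paralogs are long genes (8322 to 35004 exon bases), the summed level was lowest in male replicate 2, and the part of the length trend in their values was not tested.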

How the data were processed

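RNA from 10 libraries, 5 from female and 5 from male mice, was sequenced in bulk. Tools listed in the submitters' processing notes are STAR, featureCounts and DESeq, the builds listed there are mm10 and GRCm38.p6, and no tool version is recorded. The authors deposited raw counts per Ensembl gene, and a table of normalized values (signal) that, in each library, equal the raw count divided by 1 size factor; that table served only for this check. The count table holds 25178 genes, of which 25116 were found in GENCODE vM21 (GRCm38), and gene symbols, coordinates and exon lengths come from that release; all 8 members carry the same symbol in both. The files give no strand setting. Labels give no batch.

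From the counts, edgeR 4.0.16 (R 4.3.3) was run with filterByExpr, TMM scaling and a robust quasi-likelihood fit with sex as the only term. P-values were adjusted by Benjamini-Hochberg over the 14674 genes kept, and the SE is the absolute log2 fold change divided by the square root of F. DESeq2 1.42.0 and the other settings given at the end served as alternatives. Log2 CPM used a prior count of 2. The procedure was tested on simulated counts. Depth per library was 20754101 to 24759687 counts, and intervals cover the spread between mice as the fit sees it. They were built from this SE with a normal distribution, and so are narrower than the quasi-likelihood test implies.

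The members, the lists and the alternatives were chosen with earlier results of these data known. All 8 members are named, up to 4 genes of smallest p from the partner and paralog lists, and by likeness the 6 genes with the highest r with the members' mean and the 4 with the highest r with Slc4a1, with a mean of at least 1 CPM and without predicted genes. Marker lists of other cells are given by their sums.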

Additional observations from a re-analysis of the deposited data

Results flagged for a closer look

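In 36 groups of 5 mice searched for a single mouse apart from the others, 2 were found, both in male replicate 2, and chance gives about 1 in 20 such groups. Cd47 was at 618 CPM in male replicate 2, against 349 to 414 CPM in the other males. Cd59a was at 25.0 CPM in male replicate 2, against 11.5 to 12.7 CPM in the other males. Values of male replicate 2 also followed gene length most closely of the 10 libraries (rank correlation -0.506 across genes). None of the 8 membrane genes had such a mouse in either sex. The search did not take in every marker gene of other cells. Among these, Ltf was at 1242 CPM in male replicate 1, against 29.2 to 286 CPM in the other males. Vcam1 was at 36.3 CPM in male replicate 1, against 3.75 to 9.65 CPM in the other males.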

How the results depend on the processing

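Over 19 alternatives, 0 of the 8 membrane genes were called in any. The number of all genes called was 8, and 60 with DESeq2 (39 higher and 21 lower in females). The values gave no sign that the replicate numbers pair mice, though they cannot show that no pairing exists. Same-numbered females and males had deviations correlated by -0.302 to -0.007. With the replicate number as a block 5 genes were called, of which 0 were members. Without male replicates 1 and 2, 12 genes were called. With 1 library left out, 6 to 10 genes were called, Epb42 ranged from -0.202 to 0.016 and Rhag from -0.098 to 0.056 on the log2 scale. Values near 0 changed sign: Sptb to -0.048 and Epb41 to -0.022 without male replicates 1 and 2, Epb41 to -0.033 and Rhag to 0.046 with the length trend removed (chosen after seeing the data), and both Epb42 and Rhag to their highest values above without female replicate 5. Slc4a1, Ank1, Rhd and Ermap kept their sign throughout. The r of the members' mean with hemoglobin was -0.072, and 0.524 without male replicates 1 and 2. The causes of these shifts were not tested.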
